A study of Mus musculus with 16 samples.

Results

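The hypoxia-inducible factors and the enzymes that set their level were followed in mouse embryonic fibroblasts treated with an iron chelator, a deacetylase inhibitor or both. The 8 genes are the HIF subunits Hif1a, Epas1 and Arnt, the prolyl hydroxylases Egln1, Egln2 and Egln3, the asparaginyl hydroxylase Hif1an, and Vhl. They were chosen by symbol, and every probe set of the arrays that carries 1 of these symbols was taken. This gave 21 probe sets, out of 34945 probe sets with a single gene symbol that stand for 18193 genes. Of the 21, 16 reached a signal of 200 on at least 2 of the 16 arrays and were tested, and 5 did not. Each of the 8 genes had at least 1 tested probe set, and the tested probe set with the highest mean signal is called the leading one.

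HIF is a dimer of an unstable alpha subunit, made by Hif1a or Epas1, and the stable beta subunit made by Arnt. Prolyl hydroxylases use oxygen and iron to mark the alpha subunit, the Vhl protein binds the mark and directs the subunit to degradation, and the Hif1an enzyme modifies an asparagine in the activation domain that otherwise binds the CH1 domain of the coactivators CBP and p300. An iron chelator blocks these enzymes in normal oxygen, so HIF accumulates, and some of the enzymes are themselves known HIF targets, which closes a feedback loop.

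RNA came from 4 primary lines made from e14.5 embryos. All 4 lines, the controls included, received Cre adenovirus at passage 3 and then grew at least 100 fold in number before treatment. The control class held flox1, which is CBP+/flox, and flox2, which is p300 +/flox, so each control line also carried 1 conditional coactivator allele and neither was wild type. The triCH1 class held triCH1flox1, which is CBP CH1/flox;p300 CH1/CH1, and triCH1flox2, which is CBP CH1/CH1;p300 CH1/flox. Each line was measured once after ethanol vehicle, once after dipyridyl (DP, an iron chelator) at 100 µM, once after trichostatin A (TSA, an inhibitor of histone deacetylases) at 100 ng/ml and once after both, in normoxia, with 30 min between the 2 additions and RNA taken 3 h after the second. The files hold no replicate culture of a line, so each class is 2 lines of different genotype. The p-values of the treatment comparisons set a mean change against how unlike the changes of lines of a class were. This spread is pooled over both classes and all treatments, and is drawn toward that of other probe sets of similar signal. In bulk RNA, a lower signal from fewer cells of a type and from less RNA per cell cannot be told apart.

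The 16 arrays had median signals of 103 to 153.8, and 36.8% to 42.6% of probe sets reached 200; the number of arrays limits the precision. The vehicle array of flox1 stood apart, with a 3′ to 5′ signal ratio of 2.59 for Gapdh against 0.907 to 1.26 on the other 15 arrays. It also had an 18S ribosomal signal of 10718, against 981 to 7428 on the others, so results that rest on it are given without it as well. On vehicle and DP arrays, Crebbp, which encodes CBP, had signals of 1425 to 1633 in the 2 lines with a conditional CBP allele and 1880 to 2500 in the 2 with a conditional p300 allele, and Ep300 had 1054 to 1945 and 604.8 to 940.8. Where these probe sets lie relative to the deleted parts is not known here, so this is an incomplete check of the labels. Xist signals were 10.1 to 111 in control and 1751 to 5389 in triCH1 lines, and Eif2s3y, which lies on the Y chromosome, had 974 to 1519 and 8.90 to 82.9, so the sex of the embryos and the class cannot be told apart. Of 11 fibroblast markers, 10 reached 200 on all 16 arrays, whereas 0 of 8 endothelial, 0 of 7 macrophage and 0 of 5 epithelial markers did. On at least 1 array, 1, 6 and 3 of these did. The epithelial marker Epcam read 199 to 1121 with a median of 434, so it missed the count narrowly. The macrophage marker Csf1r read 78.6 to 375 with a median of 261.

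The upstream windows of 4 of the genes are shown because their responses differed: the transcripts of Egln1, Egln3 and Vhl rose with DP and that of Hif1a was not called changed. Each window is the 250 bases before a RefSeq start site on GRCm38.p6, written 5′ to 3′ on the strand of the gene. Capitals mark ACGTG or GCGTG on either strand, the core letters of the element that HIF binds, and overlapping matches share their capitals. The Egln1 window lies at chr8:124949255-124949504 on the minus strand, the Egln3 window at chr12:54203875-54204124 on the minus strand, the Vhl window at chr6:113623744-113623993 on the plus strand and the Hif1a window at chr12:73907617-73907866 on the plus strand.
Egln1: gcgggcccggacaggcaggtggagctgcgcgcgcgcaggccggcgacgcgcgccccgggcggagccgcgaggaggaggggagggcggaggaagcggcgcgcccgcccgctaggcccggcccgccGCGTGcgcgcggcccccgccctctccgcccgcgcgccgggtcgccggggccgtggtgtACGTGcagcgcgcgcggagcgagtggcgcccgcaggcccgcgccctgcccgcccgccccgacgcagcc
Egln3: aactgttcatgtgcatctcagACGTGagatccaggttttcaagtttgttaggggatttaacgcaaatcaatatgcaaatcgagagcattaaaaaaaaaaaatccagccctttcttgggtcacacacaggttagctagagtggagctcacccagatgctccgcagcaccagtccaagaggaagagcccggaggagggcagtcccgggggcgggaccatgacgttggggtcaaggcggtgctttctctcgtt
Vhl: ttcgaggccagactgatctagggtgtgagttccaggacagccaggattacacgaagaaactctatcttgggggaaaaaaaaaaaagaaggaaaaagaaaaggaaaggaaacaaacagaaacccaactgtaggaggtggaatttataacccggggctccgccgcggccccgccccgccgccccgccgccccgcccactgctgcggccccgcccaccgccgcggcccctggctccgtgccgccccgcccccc
Hif1a: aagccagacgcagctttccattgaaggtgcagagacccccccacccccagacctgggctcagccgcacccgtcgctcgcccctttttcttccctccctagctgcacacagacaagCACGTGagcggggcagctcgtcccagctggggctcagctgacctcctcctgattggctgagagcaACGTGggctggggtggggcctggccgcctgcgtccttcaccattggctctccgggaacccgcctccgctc

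The Egln1 window held 1 GCGTG and 1 ACGTG, 126 and 68 bases before the start, and 86% of its letters were G or C. The Egln3 window held 1 ACGTG, 229 bases before the start, and had 50.8% G or C. The Vhl window held neither string and the Hif1a window held ACGTG 3 times, 2 of them as an overlapping pair on opposite strands. The Hif1a window lies inside the span of the gene, so it precedes a start site downstream of the gene's first base. Of all 32851 windows of the same length, 38.6% held at least 1 of the strings and 6.58% held 3 or more. Of the 8 genes, 7 had a window, and 5 of these 7 held a match. Egln2, which was not called with DP and is not shown, had 2 windows, with 4 matches and 1 match. A match describes the letters only, and a string may lie outside these windows.

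The genes lie on 7 chromosomes of that build: Arnt at chr3:95434367-95497240, Vhl at chr6:113623994-113631634, Egln2 at chr7:27158658-27166802, Egln1 at chr8:124908587-124949254, Epas1 at chr17:86753864-86833410 and Hif1an at chr19:44562854-44576274. Egln3 at chr12:54178981-54203874 and Hif1a at chr12:73901324-73947554 share a chromosome.

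On their leading probe sets, Egln3, Egln1 and Vhl were higher with DP in all 4 lines and were called higher in both classes, while none of the 3 HIF subunits, Egln2 or Hif1an was called changed. Among leading probe sets Egln3 rose most, 13.5-fold in control and 3.24-fold in triCH1 lines, although in the triCH1 lines the second probe set of Egln1 rose more, at 3.45-fold. Values below are those of the leading probe set unless another is named. Signals are in the order flox1, flox2, triCH1flox1, triCH1flox2, and changes are on the log2(signal + 50) scale, which understates the change of dim probe sets.

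**Figure D1:**
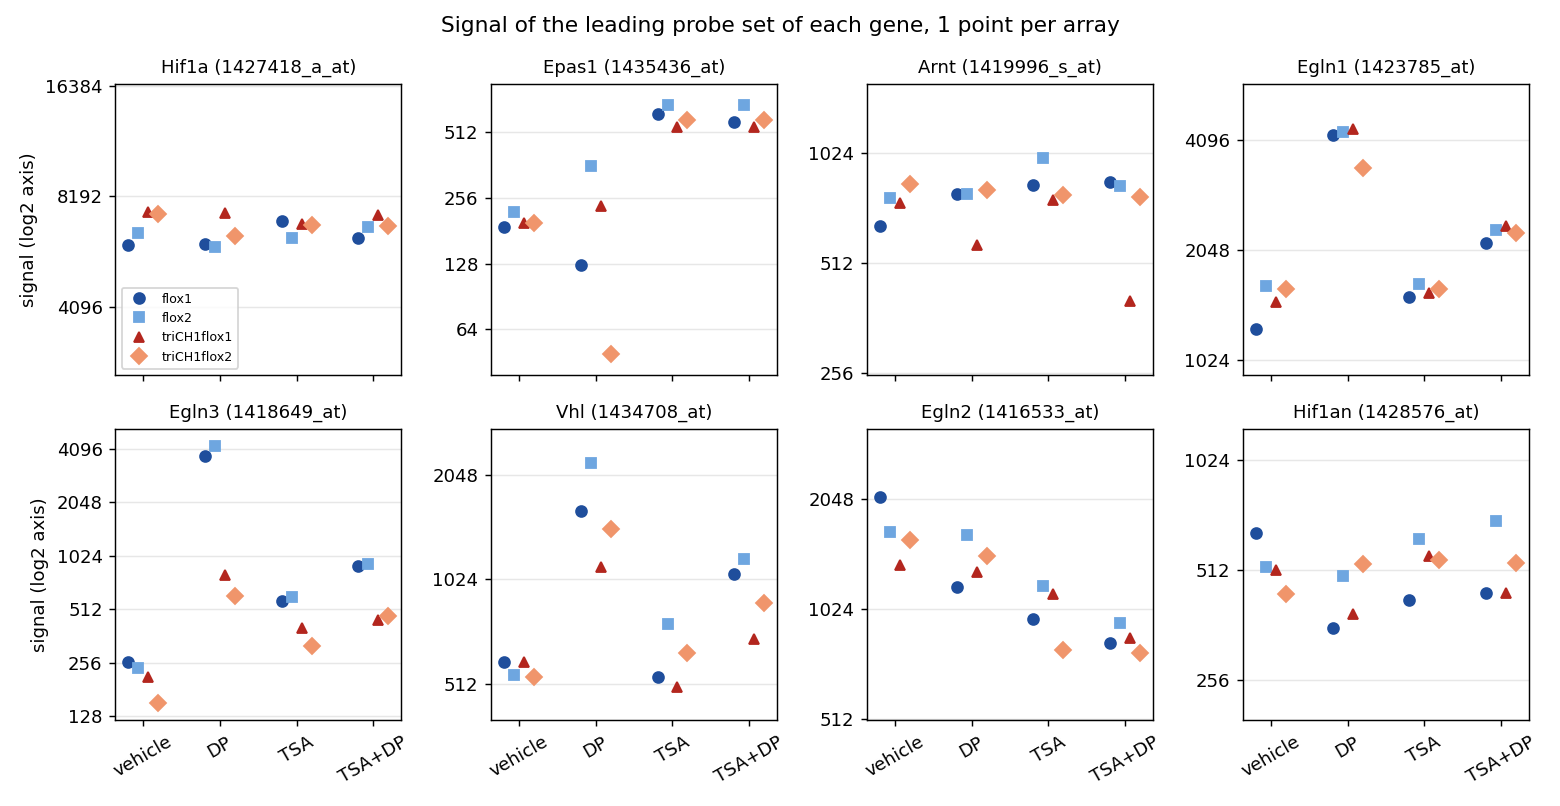
Signal of the leading probe set of each of the 8 genes on all 16 arrays, on a log axis, with 1 point for each line in each of the 4 treatments. Egln3 with DP lies at 3757 and 4244 in the control lines and at 797 and 609 in the others, while all Hif1a points lie between 5958 and 7449.

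Among the hydroxylases, Egln3 encodes the prolyl hydroxylase known as PHD3. With vehicle its signals were 259, 239, 214 and 152, and with DP they were 3757, 4244, 797 and 609. All 4 DP values lay above all 4 vehicle values, and the control lines with DP lay far above the triCH1 lines with DP. The control means were 248.9 ± 13.8 with vehicle and 4000.1 ± 344 with DP (SD, n = 2 lines), and the triCH1 means were 182.7 ± 43.9 and 703 ± 133. The change was 3.76 (SE 0.20, 95% interval 3.33 to 4.19, adjusted p = 1.22e-08, limma) in control and 1.70 (SE 0.20, interval 1.27 to 2.13, adjusted p = 0.000464) in triCH1 lines. In the control lines this was the rise ranked 3 among the 19895 tested probe sets. Without the flox1 vehicle array the control change was 3.85. The second Egln3 probe set read 297, 200.2, 92.7 and 119 with vehicle and 1752, 2077, 368 and 275 with DP. Its control rise was smaller, at 6.65-fold (2.73, SE 0.28, adjusted p = 2.57e-05), and its triCH1 rise of 2.37-fold (1.25, interval 0.66 to 1.84, adjusted p = 0.0844) was not called, so the triCH1 call of Egln3 rests on the brighter probe set.

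Egln1 encodes PHD2, the main prolyl hydroxylase of HIF in normal oxygen. Its leading probe set read 1243, 1628, 1472 and 1600 with vehicle and 4216, 4287, 4374 and 3421 with DP. Vehicle and DP values did not overlap, and with DP the ranges of the 2 classes did. In control lines it rose 2.92-fold (1.55, SE 0.15, adjusted p = 1.75e-05) and in triCH1 lines 2.47-fold (1.31, SE 0.15, adjusted p = 0.000334). Its other probe set rose 4.98-fold and 3.45-fold, so the size of the Egln1 rise depended on the probe set while the direction did not. Without the flox1 vehicle array the control change was 1.40 (adjusted p = 0.000569).

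Vhl encodes the substrate-binding subunit of the ubiquitin ligase that marks hydroxylated HIF alpha for degradation. Its signals were 592, 541.5, 592 and 537 with vehicle and 1613, 2217, 1112 and 1426 with DP. The DP values of all 4 lines lay above every vehicle value, and both control lines lay above both triCH1 lines with DP. In control lines the rise was 3.15-fold (1.66, SE 0.20, adjusted p = 0.000184) and in triCH1 lines 2.13-fold (1.09, SE 0.20, adjusted p = 0.0213). The second Vhl probe set was dim, at 50.3 to 394, and in triCH1flox1 it read 176 with vehicle and 88.0 with DP. Its control change of 0.95 had an interval of -0.23 to 2.12 and an adjusted p of 0.489. When the 2 probe sets were averaged, the Vhl rise was 1.30 with an adjusted p of 0.0841 in control and 0.88 with an adjusted p of 0.700 in triCH1 lines, so the Vhl calls rest on the brighter probe set. The triCH1 call of Vhl was also lost without the replicate block for the line (adjusted p = 0.0752) and without the variance trend (0.136). Without the flox1 vehicle array the control change was 1.89 (adjusted p = 0.000457).

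In the control lines, 3 of the 8 genes were called higher with DP and 0 lower, against 0.875% of all tested probe sets called higher and 0.151% called lower, or 1.03% in all. In the triCH1 lines the same 3 genes were called higher and 0 lower, against 0.412% and 0.00503% of tested probe sets, or 0.417% in all. The 3 calls in the triCH1 lines rest on few arrays. The triCH1flox1 arrays with DP, TSA and both, and the flox2 array with both, carry another array series in their barcodes, and within the other 12 arrays the triCH1 change rests on triCH1flox2 alone. There the rises were 1.71 for Egln3, 1.07 for Egln1 and 1.33 for Vhl, with adjusted p of 0.193, 0.291 and 0.351, and 0 of the 8 genes were called. With triCH1flox1 left out of the full fit the adjusted p was 0.0859 for Egln1 and 0.127 for Vhl, and with triCH1flox2 left out it was 0.0659 for Egln3 and 0.889 for Vhl.

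None of the tested probe sets of the subunits was called changed with DP. Hif1a, the alpha subunit found in most cell types, read 6023, 6516, 7449 and 7335 with vehicle and 6072, 5958, 7386 and 6400 with DP. These values overlapped, and the changes of -0.06 (interval -0.30 to 0.18) and -0.10 (interval -0.34 to 0.13) in the control and triCH1 lines were not called. The second Hif1a probe set, which read 599.7 to 1322 over all 16 arrays, changed by -0.07 (interval -0.52 to 0.39) in control and -0.47 (interval -0.93 to -0.02, adjusted p = 1.00) in triCH1 lines, with -0.56 in triCH1flox1 and -0.39 in triCH1flox2. A further tested probe set read 158 to 361, and the untested one stayed at or below 192.

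Arnt, the shared beta subunit, read 646, 769, 747.5 and 842.5 with vehicle and 790, 791, 575 and 812 with DP on its leading probe set. Its change was 0.15 (interval -0.30 to 0.61) in control and -0.20 (interval -0.65 to 0.25) in triCH1 lines. A second Arnt probe set of similar brightness read 1003, 878, 703 and 529 with vehicle and 587, 722, 619 and 823 with DP, so the 2 probe sets moved in opposite directions in 3 of the 4 lines. Its control change was -0.50 (interval -0.96 to -0.03, adjusted p = 0.348), and neither gave a call. Epas1, which encodes HIF-2 alpha, was near the detection filter, at 189, 220, 196 and 197 with vehicle and 127, 358.5, 234 and 49.5 with DP. The DP values lay on both sides of the vehicle values, and the intervals of -0.72 to 0.88 and -1.35 to 0.24 leave the direction of any Epas1 change unknown.

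Egln2, the prolyl hydroxylase PHD1, and Hif1an, the asparaginyl hydroxylase also called FIH, did not rise with their relatives. Egln2 read 2074, 1659, 1349 and 1579 with vehicle and 1178, 1632, 1290.0 and 1433 with DP, lower in each of the 4 lines, with changes of -0.41 (interval -0.85 to 0.04) and -0.10 (interval -0.54 to 0.34). Most of the control value came from flox1, whose change was -0.79 against -0.02 in flox2. Hif1an read 645, 521, 511 and 439.8 with vehicle and 355, 491, 388 and 532 with DP, and its changes of -0.43 (interval -0.96 to 0.10) and -0.05 (interval -0.59 to 0.48) were not called. In both genes the largest fall was that of flox1, the line whose vehicle array stood apart, and without that array the control changes were -0.10 for Egln2 and -0.03 for Hif1an.

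**Figure D2:**
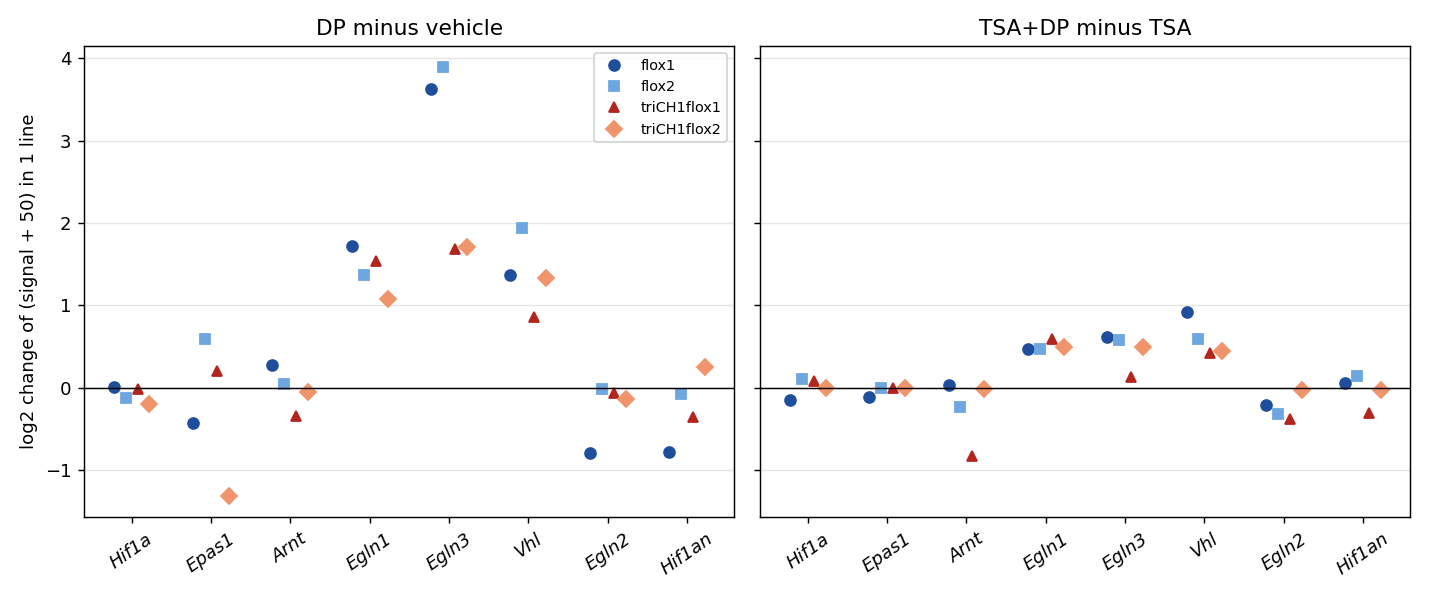
Log2 change in the same line for the leading probe set of each of the 8 genes, with 1 point per line. The left panel shows DP against vehicle and the right panel both agents against TSA. On the left the 12 values of Egln1, Egln3 and Vhl lie between 0.86 and 3.89 and those of the subunits between -1.31 and 0.60. On the right they lie between 0.13 and 0.92 and between -0.83 and 0.10.

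Set side by side over the 4 lines, the 12 changes of Egln1, Egln3 and Vhl with DP ran from 0.86 to 3.89 with a median of 1.61, and 12 were above 0. The 12 changes of Hif1a, Epas1 and Arnt ran from -1.31 to 0.60 with a median of -0.03, and 5 were above 0. The 8 changes of Egln2 and Hif1an ran from -0.79 to 0.25, and 1 was above 0. On leading probe sets the line values of the rising genes and of the subunits did not overlap, but the 3 genes were grouped because they rose. Dimmer probe sets of the subunits did reach into that range in single lines, as with Arnt at 1.59 in flox1 and Epas1 at 2.05 in flox2 and 1.25 in triCH1flox1, and the values of 1 line share a vehicle array.

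The rise of Egln3 with DP was 2.06 smaller on the log2 scale in the triCH1 lines than in the control lines. Its changes were 3.62 and 3.89 in flox1 and flox2 and 1.68 and 1.71 in triCH1flox1 and triCH1flox2, so lines of a class lay close together and the classes far apart. The difference was -2.06 (SE 0.29, interval -2.67 to -1.45, adjusted p = 0.0236), which made Egln3 the 1 gene of the 8 called lower in this comparison, against 0.0151% of tested probe sets, that is 3 of 19895. With 3 calls in all, the adjusted p depended on the fit. It was 0.0598 without the replicate block for the line and 0.0516 after quantile normalization. With a term for the array series it was 0.120, and without the variance trend 0.139. The call was lost under 9 of the 16 alternatives. These included each fit with a line left out and the fit within 1 array series, at -2.05, which leave 1 line in some groups. Over all 16 alternatives the size stayed between -2.20 and -1.77, and without the flox1 vehicle array it was -2.16 with an adjusted p of 0.0241. The second Egln3 probe set gave -1.49 (interval -2.32 to -0.65, adjusted p = 0.656).

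Egln1 and Vhl, which also rose with DP, differed less between the classes on their leading probe sets. The difference was -0.56 for Vhl (interval -1.17 to 0.04, adjusted p = 0.965) and -0.24 for Egln1 (interval -0.69 to 0.22, adjusted p = 0.970), so a Vhl rise smaller by up to 1.17 or an Egln1 rise smaller by up to 0.69 in the triCH1 lines lies within the intervals. On leading probe sets, the rise of 1.70 for Egln3 in the triCH1 lines lay near those of 1.31 for Egln1 and 1.09 for Vhl. In the control lines 3.76 stood apart from 1.55 and 1.66. The second probe sets of Egln3 and Egln1 did not keep this pattern. They rose by 2.73 and 2.32 in control lines, and by 1.25 and 1.79 in triCH1 lines. The intervals above therefore hold for leading probe sets only. For the subunits the difference was -0.05 for Hif1a (interval -0.38 to 0.29), -0.36 for Arnt (interval -0.99 to 0.28) and -0.63 for Epas1 (interval -1.76 to 0.49).

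**Figure D3:**
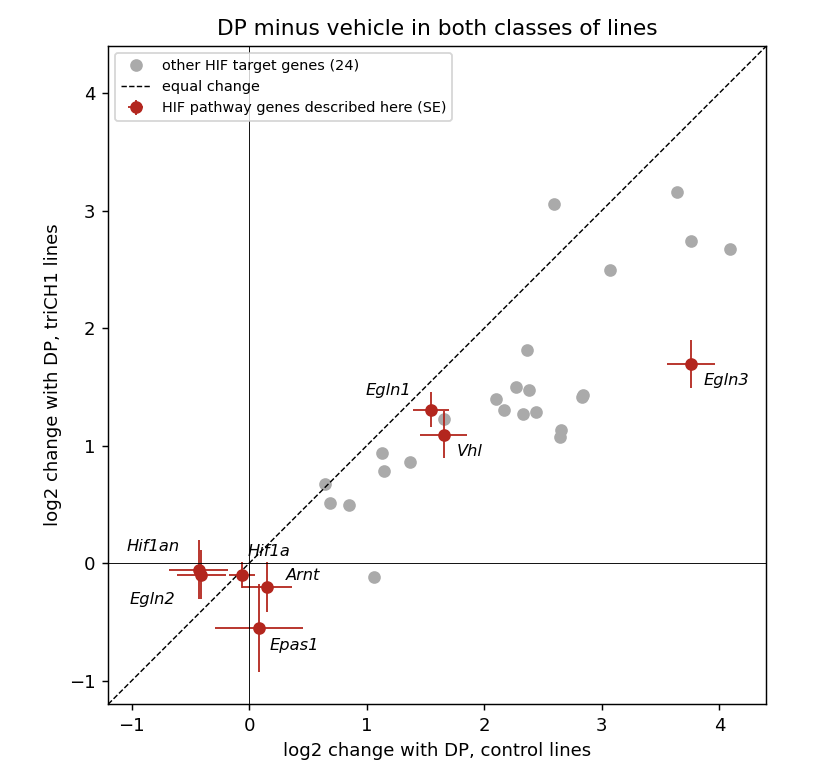
Log2 change with DP in the control lines (x axis) against that in the triCH1 lines (y axis), with standard errors for the 8 genes and grey points for 24 other HIF target genes. Egln3 lies well below the line of equal change, at 3.76 and 1.70, while Egln1 and Vhl lie nearer to it and the subunits lie around 0.

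Levels of Egln3 on its leading probe set could be ordered over the 8 groups of class and treatment. Control lines with DP were highest at 3757 and 4244, followed by control lines with both agents at 902 and 924, triCH1 lines with DP at 609 and 797, and control lines with TSA at 571 and 603. Below these came triCH1 lines with both agents at 446 and 468, triCH1 lines with TSA at 317 and 402, control vehicle at 239 and 259, and triCH1 vehicle at 152 and 214. No adjacent ranges overlapped, but with 2 lines a group the gap from 603 to 609 was far smaller than the distance between lines of either group. The second Egln3 probe set broke this order: triCH1 lines with both agents, at 131 and 187, lay below triCH1 lines with TSA at 238 and 265.5 and control vehicle at 200.2 and 297, and triCH1 lines with DP, at 275 and 368, overlapped control lines with TSA at 279 and 323. Averaged over treatments, Egln3 was 1.09 lower in the triCH1 lines (interval -1.44 to -0.75, adjusted p = 0.0645 on 4 line means), and none of the 8 genes was called, against 0.0854% of probe sets in either direction and 0.0704% lower; 1975 probe sets had an unadjusted p under 0.05, Egln3 among them. This call was gained, at adjusted p of 0.0051 to 0.0416, under 7 of its 15 alternatives. Over all 15 the value ran from -1.34 to -0.37 and the adjusted p up to 0.873. The smallest difference, -0.37, came from the fit within 1 array series. Only the vehicle treatment had all 4 lines in that series, so this value compares vehicle arrays alone, not means over treatments.

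With TSA alone, Epas1 and Egln3 were called higher and Egln2 lower, while Hif1a, Egln1 and Vhl were not called. TSA acted widely in these cells, so these 3 of 8 genes stand against 22.2% of all tested probe sets called, with 12.3% higher and 9.9% lower. In a separate fit with 1 probe set per gene, adjusted over 11481 genes, 28.2% were called, with 15.8% higher and 12.5% lower. The count of 3 is near that share, so it is no result about these genes as a group. The TSA and DP comparisons share their vehicle arrays.

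Epas1 read 189, 220, 196 and 197 with vehicle and 619, 684, 541.5 and 582 with TSA. Every TSA value lay above every vehicle value, and the 2 classes lay close together. The rise was 2.62-fold (1.39, SE 0.27, interval 0.82 to 1.95, adjusted p = 0.00138) and was seen in each of the 4 lines at 1.26 to 1.49; without the flox1 vehicle array it was 1.47 (adjusted p = 0.00308). The second Epas1 probe set was dim, at 17.1 to 262.5, with a change of 0.28 (interval -0.79 to 1.35), and with the 2 probe sets averaged the rise was 0.83 with an adjusted p of 0.0806. Endothelium is a cell type known for high Epas1: of 8 endothelial markers, 1 reached 200 on any array, and their summed signal was 274.6 to 809 on the vehicle arrays and 345 to 668 on the TSA arrays.

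Egln3 read 571, 603, 402 and 317 with TSA, above the vehicle value of its own line in every line, and rose 1.94-fold (0.96, SE 0.14, adjusted p = 0.000188); its second probe set gave 0.60 (adjusted p = 0.0373). Without the flox1 vehicle array the rise was 1.00 (adjusted p = 0.000447). Egln2 fell to 963, 1186, 1126 and 792, below each vehicle value, by 1.61-fold (-0.68, SE 0.15, adjusted p = 0.00328). The Egln2 changes of the lines ran from -1.07 in flox1 to -0.25 in triCH1flox1. The call was lost without flox1 (adjusted p = 0.0567) and without triCH1flox2 (0.0807), and it was kept without the flox1 vehicle array, at -0.53 (0.0220).

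Of the genes not called with TSA, the change was -0.01 for Hif1a (interval -0.18 to 0.16), 0.10 for Egln1 (interval -0.13 to 0.33) and 0.08 for Vhl (interval -0.22 to 0.38). For Arnt it was 0.16 (interval -0.16 to 0.48) and for Hif1an 0.02 (interval -0.36 to 0.40).

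**Figure D4:**
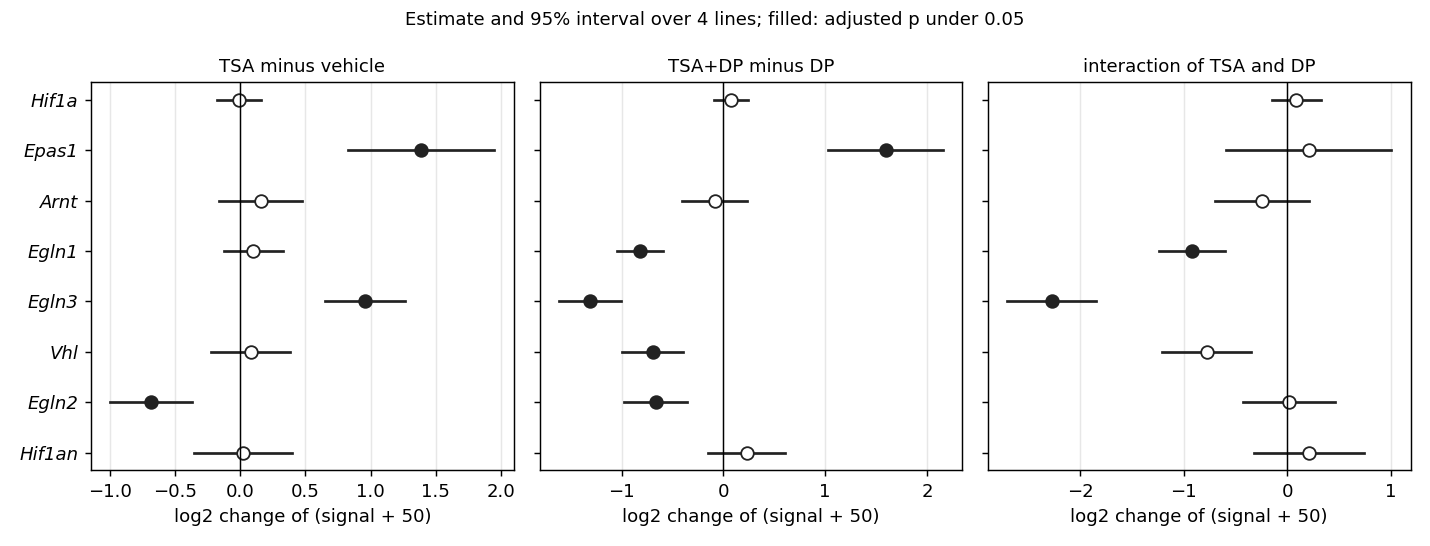
Log2 changes with 95% intervals over 4 lines for the leading probe set of each of the 8 genes, in panels for TSA against vehicle, both agents against DP, and the interaction, with filled points at an adjusted p under 0.05. Epas1 and Egln3 lie above 0 and Egln2 below 0 with TSA alone, and Egln3, Egln1 and Vhl lie below 0 when both agents are compared with DP.

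With TSA present, DP raised none of the 8 genes past the threshold in either class, and Egln3, Egln1 and Vhl ended lower than with DP alone. In the control lines 0 of 8 genes were called, against 0.0955% of probe sets in either direction and 0.0905% called higher, and 842 probe sets had an unadjusted p under 0.05 in limma. In the triCH1 lines it was 0 of 8, against 0.0302% and 0.0251%, with 1093 probe sets at that unadjusted level. On leading probe sets, the 12 changes of Egln1, Egln3 and Vhl with DP on top of TSA were above 0, at 0.13 to 0.92. In the control lines they were 0.76 for Vhl (interval 0.33 to 1.19, adjusted p = 0.718), 0.60 for Egln3 (interval 0.17 to 1.03) and 0.47 for Egln1 (interval 0.15 to 0.79). In the triCH1 lines they were 0.44 for Vhl (interval 0.01 to 0.86), 0.32 for Egln3 (interval -0.11 to 0.75) and 0.54 for Egln1 (interval 0.22 to 0.86, adjusted p = 0.704). For Egln3 and Vhl the direction in the triCH1 lines turned with the probe set. The second Egln3 probe set gave -0.54 there (interval -1.14 to 0.05, adjusted p = 0.872), with lower signals in both lines. The second Vhl probe set gave -0.11 in control and -0.10 in triCH1 lines. The second Egln1 probe set gave 0.55 (interval 0.10 to 1.01) in control but 0.06 (interval -0.40 to 0.51) in triCH1 lines.

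The arrays with both agents were also set against those with DP alone, which serve the comparisons of DP with vehicle too. Egln3 read 902, 924, 446 and 468 with both agents, below the DP value of the same line in all 4 lines, a fall of 2.49-fold (-1.31, SE 0.14, adjusted p = 1.01e-05). The line values were -0.77 in triCH1flox1 and -0.35 in triCH1flox2, and both control lines lay lower, down to -2.14 in flox2; this difference between classes was not tested. Egln1 read 2136, 2317, 2383 and 2273, all below the lowest DP value, and fell 1.77-fold (-0.82, SE 0.11, adjusted p = 5.25e-05). Vhl read 1064, 1174, 691 and 878 and fell 1.62-fold (-0.70, SE 0.14, adjusted p = 0.00214), while its second probe set gave -0.43 (interval -1.26 to 0.40, adjusted p = 0.479).

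Egln2 was lower as well with both agents, at 824.5, 936, 853 and 778, by 1.59-fold against DP (-0.67, adjusted p = 0.00365). Epas1 was 3.02-fold higher (1.59, SE 0.27, adjusted p = 0.000419), at 568, 684, 542 and 581.5. In 3 of the 4 lines Epas1 with both agents lay within 1 signal unit of its value with TSA alone. These 5 of 8 genes stand against 23.6% of all tested probe sets called in this comparison, 13.2% higher and 10.4% lower. In the fit with 1 probe set per gene the share was 29.9%, with 17.7% higher and 12.2% lower. With probe sets averaged per gene the adjusted p was 0.173 for Epas1 and 0.0862 for Vhl, and within the 12 arrays of 1 series it was 0.103 for Vhl and 0.0692 for Egln2. The lines' values for Hif1a overlapped with those of DP, at 6314, 6743, 7288 and 6802, with a change of 0.08.

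Whether TSA altered the response to DP was tested as an interaction, the DP change with TSA minus the DP change without it. It was -2.27 for Egln3 (SE 0.20, interval -2.70 to -1.84, adjusted p = 2.92e-05) and -0.92 for Egln1 (SE 0.15, interval -1.24 to -0.60, adjusted p = 0.0113). These 2 of 8 genes were called lower, against 0.256% of tested probe sets, and the second probe sets of Egln3 and Egln1 gave -1.97 and -1.74. Each value is a mean over both classes. For Egln3 the DP change in the control lines was 3.76 without TSA and 0.60 with it. In the triCH1 lines the Egln3 changes were 1.70 and 0.32. A class difference in the interaction was not tested. Vhl had -0.78 (interval -1.21 to -0.35, adjusted p = 0.279). The subunits had values of 0.09 for Hif1a, 0.21 for Epas1 and -0.24 for Arnt. The Egln1 call was lost with each line left out (adjusted p of 0.0711 to 0.345), and within the 12 arrays of 1 series the adjusted p was 0.0576 for Egln3 and 1.00 for Egln1. Without the flox1 vehicle array the interaction was -2.32 for Egln3 and -0.85 for Egln1 (adjusted p = 0.0233).

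Of 26 other genes of HIF turnover and partnering, such as ubiquitin ligases, deubiquitinases and chaperones, 20 were tested. With DP 0 of the 20 were called in either class, with median changes of -0.16 in control and -0.02 in triCH1 lines, against -0.04 and -0.02 over all 11481 genes. With TSA 2 of 20 rose and 4 fell, a share near the 28.2% called among all 11481 genes with 1 probe set per gene, so the count is no result about these genes. Usp20, a deubiquitinase that acts on HIF-1 alpha, rose 3.99-fold (adjusted p = 9.47e-07), while Ubxn7, which links the Vhl ligase to a segregase, changed by -0.77, the ubiquitin ligase gene Siah1a by -0.67 and the SUMO protease gene Senp1 by -0.58. With both agents against DP 2 of 20 were higher, Usp20 at 1.89 and Limd1 at 0.41, and 2 lower, Siah1a at -0.81 and Senp1 at -0.71, against 29.9% of all genes called.

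Of 24 other known HIF target genes, all tested, 23 were called higher with DP in the control lines, with a median change of 2.35. In the triCH1 lines 22 were called higher, with a median of 1.30. These counts stand against 1.22% and 0.566% of all 11481 genes called higher, with 1 probe set per gene. Such shares of all genes come from a separate fit, adjusted over the 11481 genes. The counts come from the main fit, adjusted over the 19895 probe sets, so the thresholds are not the same. The list was chosen with earlier results of these data known, so the counts give no independent support. The rise of Egln3 in the control lines lay above this median and those of Egln1 and Vhl below it. The class difference of the 24 had a median of -0.74 with 1 called lower, against 0.0261% of all genes. The interaction with TSA had a median of -1.06 with 14 called lower, against 0.392%. In both comparisons the value of Egln3, -2.06 and -2.27, was beyond the list's median and that of Egln1 was nearer to 0 than the median.

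The genes whose changes over the 12 treated arrays lay nearest to those of Egln3, out of 11480, were Zfp395, Pdk1 and Ier3, with root mean square differences of 0.550, 0.601 and 0.608 on the log2 scale. The root mean square change of Egln3 itself was 1.96. Pdk1, which encodes a kinase that holds back pyruvate oxidation, rose by 3.07 and 2.50 with DP in the control and triCH1 lines, values closer to each other than those of Egln3, a contrast that was not tested. Zfp395 rose by 3.17 and 1.09. Nearest to Egln1 were Fam162a, Gdap10 and Nrn1, at 0.222, 0.248 and 0.314, against a change of 0.912 for Egln1 itself. This likeness is a description over 4 lines that share their vehicle arrays.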

How the data were processed

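The 16 arrays were Affymetrix Mouse430_2. The deposited values are probe set intensity estimates from Affymetrix's statistical algorithm, which the authors scaled to a target of 500, per the labels; the 2% trimmed mean was checked to be 500.0 on every array. The software version is not given in the sources used here. Of 45101 probe sets, 64 were controls, 932 had several gene symbols and 9160 had none, and these were left out; 0 data columns were unmatched to a sample. Gene names came from the platform annotation table and were matched to RefSeq by gene ID for 34741 probe sets.

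Signals were analysed as log2(signal + 50) for the 19895 probe sets (11481 genes) with a signal of at least 200 on at least 2 arrays. The linear model of limma 3.58.1 (R 4.3.3) held 8 means of class and treatment and the line as a replicate block, with variances that follow a trend; classes across treatments were compared on 4 line means. P-values were adjusted by Benjamini-Hochberg over all tested probe sets of a comparison, and a gene was called at an adjusted p under 0.05. The scripts were tested on simulated data. Figures were drawn with matplotlib 3.10.9 in Python 3.11.15.

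The pairing comes from the labels, which give the same 4 lines under 4 treatments. Deviations from group means of arrays of the same line correlated at 0.105 to 0.275 for control and 0.0454 to 0.317 for triCH1 lines, and those of equally numbered lines of opposite classes at -0.0172 to 0.137.

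The genes and gene lists were chosen with earlier results of these data known. Named were all 8 genes, up to 4 called genes of the pathway list by smallest adjusted p, and the 3 genes nearest to Egln3 and to Egln1. Alternatives covered pseudocounts of 20 and 200, filters, quantile normalization, probe set summaries, the block, the variance trend, the array series and left-out arrays and lines. Promoter windows are from RefSeq's table of start sites on GRCm38.p6.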

Additional observations from a re-analysis of the deposited data

Results flagged for a closer look

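The change of Egln3 with DP differed between the classes by -2.06 on the log2 scale, triCH1 minus control, in a test of the difference itself. TSA altered the response to DP, in a test of the interaction as a mean over both classes, by -2.27 for Egln3 and by -0.92 for Egln1. Arnt on its leading probe set was lower with both agents than with DP in both triCH1 lines and higher in both control lines. The difference of class means was -0.34 and was not tested. Its second probe set went the other way in triCH1flox1, at 619 with DP and 658 with both agents. Hif1an was lower with both agents than with TSA in both triCH1 lines and higher in both control lines. That difference of -0.27 was not tested, and single changes were small, as from 544 to 533 in triCH1flox2. Both patterns were picked by direction alone, and the share of all probe sets with such a pattern was not counted.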

How the results depend on the processing

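None of the calls for the 8 genes reversed under any alternative run. The 3 calls with DP in the control lines and the 3 with TSA stayed at 2 to 3 under every alternative run, with the lost calls of Vhl, Epas1 and Egln2 given beside their results, and the 0 calls with DP on top of TSA stayed at 0. Without the replicate block, the 1 call for the difference between the classes went to 0, the Vhl rise in the triCH1 lines was lost (adjusted p = 0.0752), and 140 probe sets in place of 204 were called with DP in the control lines, and 47 in place of 83 in the triCH1 lines.

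The call for the difference between the classes was also 0 after quantile normalization, with a term for the array series, without the variance trend and within array series A, an alternative chosen after seeing the data, and 0 to 0 with each line left out. The 3 calls with DP in the triCH1 lines were 0 within array series A and ranged from 1 to 3 with each line left out. The 5 calls with both agents against DP were 3 with probe sets averaged per gene and 3 within array series A. The 2 calls for the interaction were 1 without the variance trend, 0 within array series A and 1 to 1 with each line left out. The class comparison across treatments, with 0 calls, had 1 with a pseudocount of 200, with no filter on low signals and with 1 probe set per gene by the highest or by the mean, and 0 to 1 with each line left out. The cause of these moves was not tested, but the fits within 1 series and without a line hold fewer arrays.

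Counts over all probe sets moved more. With DP in the control lines 204 were called, against 70 without flox1, 536 without flox2 and 106 without the flox1 vehicle array. In the triCH1 lines 83 were called, against 38 without triCH1flox1, 16 without triCH1flox2 and 24 without the variance trend. For the class difference 3 were called, against 0 to 40. For TSA 4409 were called, against 1850 to 4525, and for both agents against DP 4686, against 1327 to 5108. For the interaction 51 were called, against 6 to 64, and for the class across treatments 17, against 3 to 487. For DP on top of TSA 19 and 6 were called in the control and triCH1 lines, against 3 to 24 and 0 to 9.

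One array per line and treatment limits all of these results, and levels of dim probe sets such as those of Epas1 with vehicle lie near background.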
